A study of Homo sapiens with 6 samples.

Results

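OTX2 and 8 other genes for transcription factors of early anterior neural development were examined in human embryonic stem cells grown on different laminin coatings. The 9 genes, of 60499 gene IDs in the deposited tables, were OTX2, OTX1, HESX1, POU3F1, FEZF1, SIX3, BARHL1, PAX6 and SOX1, matched by symbol to 1 Ensembl ID each. They were selected on the counts of this same comparison, with the difference between the coatings in view, so their values in it are given as a description, with no p-value. The cells were H1, an established human embryonic stem cell line. All wells received the same stem cell medium (NutriStem), changed daily for 4 days, and differed in coating. One group of 3 wells was coated with laminin-521 alone (LN-521), and the other group of 3 wells with laminin-521 and laminin-221 together (LN-521+LN-221), called the mixed coating here. Laminins, the proteins of both coatings, belong to the basement membrane on which epithelial and muscle cells sit. RNA was taken at confluence, and all 6 wells hold the same line.

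As background, the anterior part of the neural plate, from which forebrain, eye and midbrain arise, is laid down by a small set of transcription factors. OTX2, a homeodomain protein, is needed for forebrain and midbrain. It is already active in pluripotent cells, where it works with POU5F1 in the primed state, before any neural gene such as PAX6 or SOX1 is switched on. HESX1, SIX3, FEZF1, BARHL1 and OTX1 act later in parts of the forebrain and its neighbours, and POU3F1 (also called OCT6) acts in the epiblast and early neural cells.

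Expression of OTX2, HESX1, POU3F1, FEZF1 and BARHL1 was higher on the mixed coating than on LN-521, by between 1.45-fold and 4.69-fold. SIX3 was higher too, but at no more than 9 counts in any library. The well-known markers of committed neural cells, PAX6 and SOX1, stayed at no more than 18 counts per library on both coatings, with overlapping values, and OTX1 was at 7 to 12 counts. Of the 9 genes, 6 passed the filter on low counts (edgeR's filterByExpr) and entered the fit over 17608 genes. Among these 6, 5 passed the threshold (edgeR quasi-likelihood test, Benjamini-Hochberg adjusted p under 0.05), all higher on the mixed coating. Of all genes tested, 2.53% passed and 1.4% passed as higher; since the comparison itself led to the choice of the genes, nothing is read from this contrast. Without mixed-coating replicate 3 the count was 3, as POU3F1 and FEZF1 did not pass, and without LN-521 replicate 3 it was 4, as FEZF1 did not pass. With limma on log2(TPM + 1), where 4 of the genes could be tested, OTX2 alone passed. In CPM, counts scaled to a common library size, the coatings did not overlap for these 5 genes and SIX3. Of all genes tested, 19.9% did not overlap, 10.2% as higher and 9.68% as lower on the mixed coating, and nothing is read from this either.

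**Figure D1:**
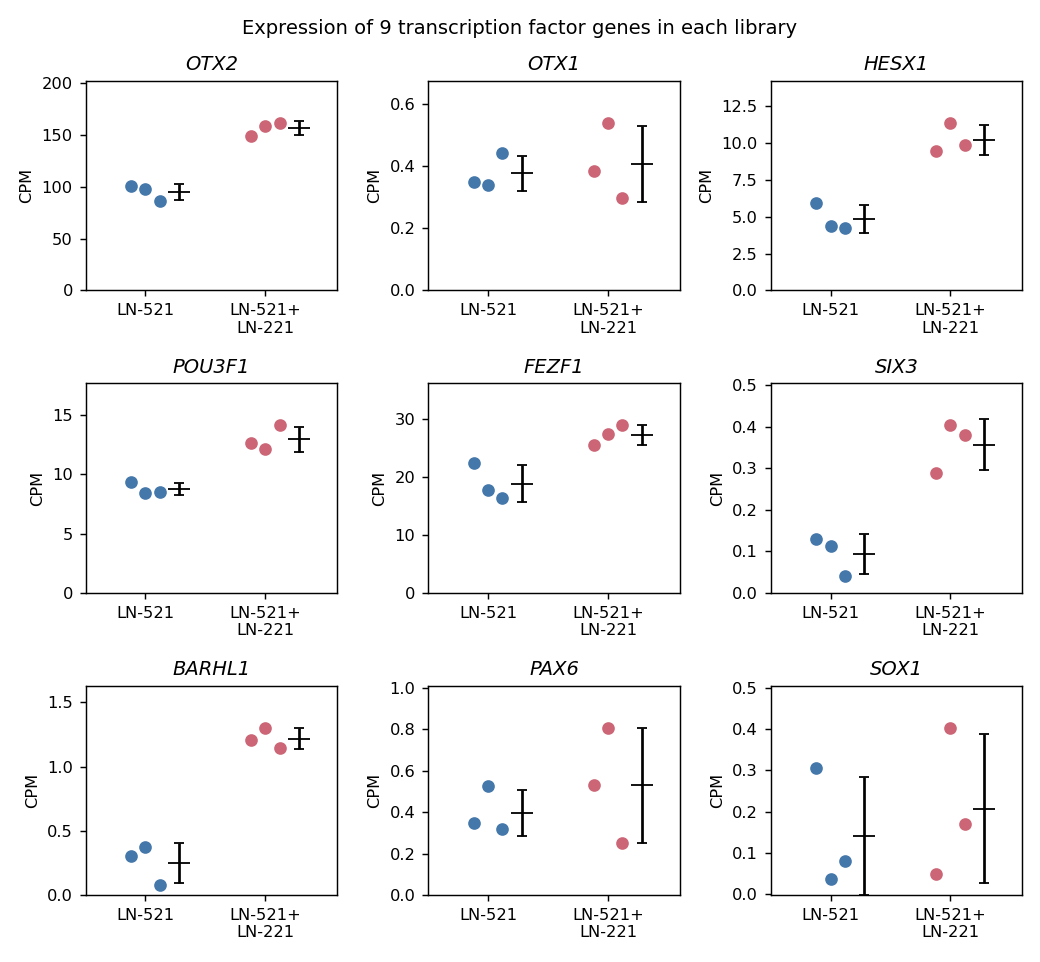
Expression of the 9 genes in each library, in CPM (linear axes that differ between panels); points are single libraries and bars are mean ± SD of 3 wells per coating. For OTX2, HESX1, POU3F1, FEZF1, SIX3 and BARHL1 every mixed-coating point lies above every LN-521 point, while the points of OTX1, PAX6 and SOX1 overlap.

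Sequences before a start site of the tested genes with the 3 largest fold changes are shown, and for HESX1 the window with a motif match. They are the 250 bases before an annotated RefSeq start site (build GRCh38.p14), 5′ to 3′ on the strand of the gene, in lower case, with TAATTA in capitals. The OTX2 window lies at chr14:56810480-56810729 (minus strand), the HESX1 window, before the inner of its start sites, at chr3:57199979-57200228 (minus strand), and the BARHL1 window at chr9:132582356-132582605 (plus strand).
OTX2: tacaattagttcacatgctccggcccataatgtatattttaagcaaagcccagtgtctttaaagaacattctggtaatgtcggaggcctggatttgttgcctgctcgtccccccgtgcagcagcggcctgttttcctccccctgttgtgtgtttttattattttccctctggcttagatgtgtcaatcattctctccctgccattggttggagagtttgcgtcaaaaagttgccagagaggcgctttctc
HESX1: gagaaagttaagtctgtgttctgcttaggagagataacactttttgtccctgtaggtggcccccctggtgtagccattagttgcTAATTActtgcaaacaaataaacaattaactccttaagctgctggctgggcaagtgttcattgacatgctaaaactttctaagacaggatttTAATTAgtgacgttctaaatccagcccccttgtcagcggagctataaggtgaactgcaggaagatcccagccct
BARHL1: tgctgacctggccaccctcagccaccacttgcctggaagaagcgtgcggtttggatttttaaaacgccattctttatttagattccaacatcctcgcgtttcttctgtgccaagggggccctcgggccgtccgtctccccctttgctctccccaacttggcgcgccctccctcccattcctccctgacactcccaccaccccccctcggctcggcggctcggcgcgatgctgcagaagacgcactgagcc

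Motifs were searched on both strands in all 35116 such windows of 250 bases. TAATCC, the core bound by OTX proteins, was found in 5.62% of them, TAATTA, the core bound by many homeodomain proteins, in 4.35%, and ATGCAAAT, the octamer bound by POU proteins, in 1.63%. The table gave 19 windows for 8 of the 9 genes; SIX3 was not matched. Among these, the HESX1 window shown above held TAATTA at 2 places, whose first bases lie 166 and 74 bases before the start site. No other window of these genes held any of the 3 motifs, and no match overlapped another motif. G and C made up 43.6% of the HESX1 window shown and 79.2% of its other window, which held no motif. They made up 47.2% of the OTX2 window shown and 50% of its other window, and 61.6% of the BARHL1 window. The RNA values do not show which start site was used, and a match is a description of the letters only.

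OTX2 (ENSG00000165588; GRCh38, chromosome 14, 56799905 to 56810479, minus strand) was the most abundant of the 9 genes. It had 2316, 2609 and 2162 counts in the LN-521 wells and 3103, 3550 and 3830 on the mixed coating. Scaled for library size, these were 100.9, 98.1 and 86.8 CPM on LN-521 and 149.4, 159.2 and 161.8 CPM on the mixed coating. The lowest library on the mixed coating thus lay well above the highest on LN-521, and replicate 3 was the lowest library on LN-521. The means were 95.2 ± 7.47 and 156.8 ± 6.51 CPM (SD, n = 3 each), a 1.65-fold difference, or 0.72 ± 0.06 (SE) on the log2 scale. In TPM, which is corrected for transcript length, OTX2 was at 48.41, 46.82 and 41.69 on LN-521 and at 78.97, 79.7 and 79.15 on the mixed coating. On this scale the 3 wells of the mixed coating were almost level, with an SD of 0.38 against 3.51 on LN-521. The log2 fold change stayed between 0.656 and 0.762 when any library was left out.

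Its close relative OTX1 (ENSG00000115507; chromosome 2, 63050057 to 63057836, plus strand), which acts in cortex and inner ear, was far lower. OTX1 had 8, 9 and 11 counts on LN-521 and 8, 12 and 7 on the mixed coating, and did not pass the filter. The summed counts were 28 and 27, a ratio of 1.08 after scaling for library size, with a 95% interval of 0.61 to 1.89 (from the exact Clopper-Pearson interval of the share of counts; here and below it covers counting error only). A difference as large as that of OTX2 lies within this interval.

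HESX1 (ENSG00000163666; chromosome 3, 57197838 to 57227606, minus strand), a homeodomain repressor needed for forebrain and pituitary, was 2.11-fold higher. It had 136, 117 and 105 counts on LN-521 and 196, 253 and 233 on the mixed coating. In CPM these were 5.92, 4.40 and 4.21 against 9.44, 11.3 and 9.84. LN-521 replicate 1 was the highest of its group and still below every mixed-coating library. The means were 4.85 ± 0.939 and 10.2 ± 1.01 CPM (SD, n = 3 each), or 1.08 ± 0.14 (SE) on the log2 scale, which ranged from 0.991 to 1.24 when any library was left out.

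POU3F1 (ENSG00000185668; chromosome 1, 38044611 to 38046794, minus strand), a POU domain factor, had 214, 223 and 211 counts on LN-521 and 262, 270 and 334 on the mixed coating. Its values were 9.32, 8.38 and 8.47 CPM against 12.6, 12.1 and 14.1 CPM. Values within each coating were close, and the gap between the coatings was larger than the range within either. The means were 8.72 ± 0.519 and 12.9 ± 1.04 CPM (SD, n = 3 each), a 1.49-fold difference, or 0.57 ± 0.10 (SE) on the log2 scale.

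FEZF1 (ENSG00000128610; chromosome 7, 122301394 to 122310691, minus strand), a zinc finger repressor of the early forebrain, had 517, 472 and 409 counts on LN-521 and 532, 611 and 686 on the mixed coating. In CPM these were 22.5, 17.7 and 16.4 against 25.6, 27.4 and 28.97. LN-521 replicate 1 came near the lowest library on the mixed coating, so the gap between the coatings was small. The means were 18.9 ± 3.21 and 27.3 ± 1.68 CPM (SD, n = 3 each), a 1.45-fold difference, or 0.54 ± 0.10 (SE) on the log2 scale. Exons of FEZF1 overlap those of the antisense transcript FEZF1-AS1 by 611 bases (GENCODE 29), and FEZF1-AS1 had 281, 282 and 240 counts on LN-521 and 276, 349 and 376 on the mixed coating. FEZF1-AS1, named for this overlap after its values were seen, rose by 0.47 ± 0.11 in log2 (SE, edgeR adjusted p = 0.0280). The library kit keeps the strand, but whether counting used it is not given in the sources used here. If it did not, reads of the 2 genes in the shared exons cannot be told apart.

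BARHL1 (ENSG00000125492; chromosome 9, 132582185 to 132590266, plus strand), a homeobox gene of the diencephalon, cerebellum and inner ear, had the largest fold change of the 6 tested genes, at a very low level. It had 7, 10 and 2 counts on LN-521 and 25, 29 and 27 on the mixed coating, or 0.305, 0.376 and 0.080 CPM against 1.2, 1.30 and 1.14 CPM. The mixed-coating wells were close to each other, and the LN-521 wells ranged widely around few counts. The log2 fold change was 2.23 ± 0.41 (SE), a 4.69-fold difference, and ranged from 1.81 without LN-521 replicate 3 to 2.65 without LN-521 replicate 2. The summed counts were 19 and 81, a scaled ratio of 4.76 (95% interval 2.86 to 8.3). Its TPM stayed at or below 0.51 in every library.

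SIX3 (ENSG00000138083; chromosome 2, 44941898 to 44946077, plus strand), a homeobox gene of the anterior forebrain and eye, had 3, 3 and 1 counts on LN-521 and 6, 9 and 9 on the mixed coating. Every mixed-coating well lay above every LN-521 well, at 0.289, 0.404 and 0.380 CPM against 0.131, 0.113 and 0.040 CPM. SIX3 did not pass the filter on low counts. Its summed counts were 7 and 24, a scaled ratio of 3.83 (95% interval 1.6 to 10.5), and in an edgeR fit without the filter its log2 fold change was 1.86 ± 0.75 (SE).

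PAX6 (ENSG00000007372; chromosome 11, 31784779 to 31818062, minus strand), a paired-box factor of neuroectoderm and eye, had 8, 14 and 8 counts on LN-521 and 11, 18 and 6 on the mixed coating. The mixed coating held both the highest and the lowest library, so the coatings overlapped. The means were 0.399 ± 0.111 and 0.530 ± 0.277 CPM (SD, n = 3 each), and the log2 difference of 0.39 ± 0.45 (SE) was smaller than its error; it was -0.056 without mixed-coating replicate 2. Exons of PAX6 overlap those of ELP4 on the other strand by 5241 bases, and ELP4, also named for its overlap after its values were seen, was at 27.7 CPM on LN-521 and 28.8 CPM on the mixed coating. SOX1 (ENSG00000182968; chromosome 13, 112067647 to 112070488, plus strand), an early marker of neuroectoderm, had 7, 1 and 2 counts on LN-521 and 1, 9 and 4 on the mixed coating. The SOX1 values overlapped as well, with a scaled ratio of 1.56 (95% interval 0.645 to 3.93). Differences as large as those of OTX2 and HESX1 lie within this interval.

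The levels of the 9 genes were then set against each other in TPM. On LN-521 the order of the mean TPM was OTX2 at 45.6 ± 3.51, FEZF1 at 10.1 ± 2.13, HESX1 at 5.07 ± 1.34 and POU3F1 at 2.48 ± 0.374 (SD, n = 3 each), followed by the other 5 genes below 1 TPM. On the mixed coating the first 4 kept this order, at 79.3 ± 0.380, 14.7 ± 0.465, 10.5 ± 0.922 and 3.76 ± 0.219 TPM (SD, n = 3 each). No neighbours among these 4 overlapped in TPM on either coating. Below them, OTX1 (0.20), PAX6 (0.157) and BARHL1 (0.0933) were the next mean TPM values on LN-521, while on the mixed coating BARHL1 (0.473) came before PAX6 (0.223), OTX1 (0.153) and SIX3 (0.123). BARHL1 on the mixed coating, whose lowest value of 0.41 TPM lay above the PAX6 values of 0.08 to 0.34 TPM, stood clear of its lower neighbour. All other neighbours below POU3F1 overlapped on both coatings, so their order is not fixed by these data. TPM values share a fixed total, and RNAs of the abundant 7SL family took between 30.1% (LN-521 replicate 1) and 37.3% (LN-521 replicate 2) of it on LN-521 and between 31.1% and 32.9% on the mixed coating.

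**Figure D2:**
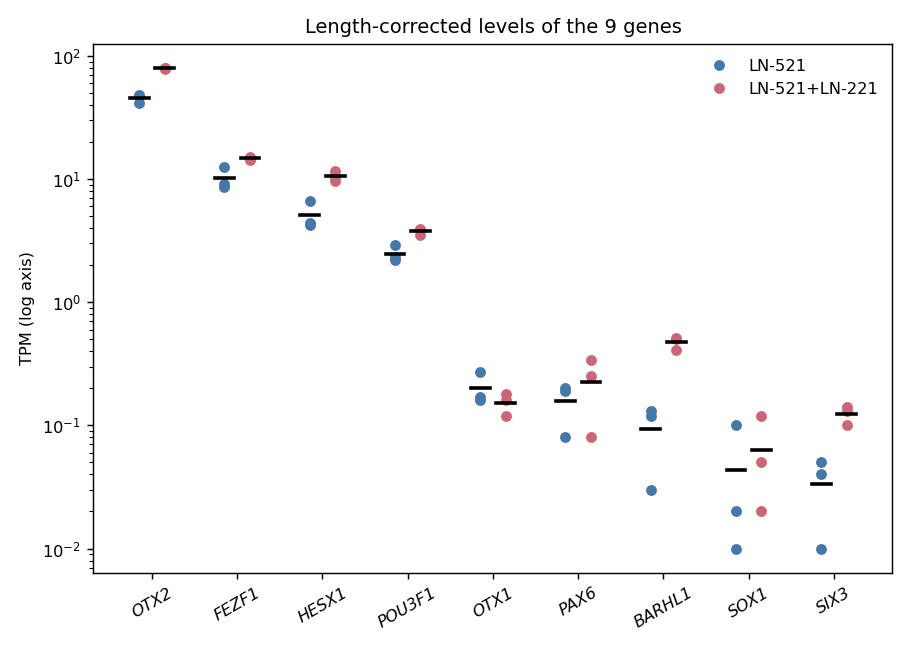
Length-corrected level of each gene in TPM on a log axis, ordered by the mean on LN-521; points are single libraries (3 per coating) and lines are means. OTX2, FEZF1, HESX1 and POU3F1 lie above 1 TPM in every library and the other 5 genes below it.

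The log2 CPM of OTX2 over the 6 libraries was compared with that of the other 5 tested genes of the 9. Pearson's r with OTX2 was 0.984 for BARHL1, 0.975 for HESX1, 0.967 for POU3F1 and 0.942 for FEZF1, and 0.321 for PAX6. Among all tested genes, the first 4 of these lay at percentiles 98.3 to 99.6 of r with OTX2 and PAX6 at percentile 67.8. These values are a description over 6 libraries and include the difference between the coatings, on which the genes were selected. After the mean of each coating was taken away, r was 0.826 for FEZF1, 0.798 for BARHL1, 0.682 for HESX1, 0.464 for POU3F1 and 0.052 for PAX6. These values also rest on 6 libraries. They were not set against those of all tested genes, so nothing particular to these genes is read from them. Among the 17377 other tested genes with a symbol, the patterns most like OTX2 were those of PPP1R3B (r = 0.9995), SAMHD1 (r = 0.9992), FLRT3 (r = 0.9983), SOAT1 (r = 0.9977) and SSBP3 (r = 0.9977). PPP1R3B targets protein phosphatase 1 to glycogen, and was at 68.96, 66.8 and 57.6 CPM on LN-521 and at 102.8, 110.8 and 114.2 CPM on the mixed coating. It ranked the 6 libraries in the same order as OTX2, as did the other 4. The sizes differed: the log2 fold change was 1.22 ± 0.11 (SE) for FLRT3, a membrane protein, and 0.14 ± 0.05 (SE) for SSBP3, a cofactor of LIM-domain complexes, which did not pass the threshold (edgeR adjusted p = 0.239).

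To place the 9 genes among others of the same processes, 6 lists of genes were compared in the same fit. Genes in these lists carry p-values, their changes are log2 fold changes on the mixed coating relative to LN-521, and several genes stand in more than 1 list. The median log2 fold change over all genes tested was -0.0011, and 2.53% of them passed. The lists, like the 9 genes, were drawn up with earlier results of these data known, so their counts beside this share are a description and no independent evidence.

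In the list of 16 other anterior neural genes, 5 were tested and 1 rose, with a median log2 fold change of 0.20. That gene was ZIC1, a zinc finger factor of the dorsal neural tube, at 9, 9 and 11 counts on LN-521 and 21, 27 and 19 on the mixed coating, a change of 1.36 ± 0.35 (SE, edgeR adjusted p = 0.0474). ZIC1 did not pass in any of the 6 fits that left out 1 library, nor with library size alone (edgeR adjusted p = 0.0501) or DESeq2 (adjusted p = 0.133). The other 11 genes of the list, among them LHX2, SIX6, EMX1 and EMX2, had at most 12 counts in a library and were not tested. LHX5, a LIM-homeobox gene of the forebrain named here after its values were seen, was at 24.3, 23.4 and 12.1 CPM on LN-521 and 60.9, 63.5 and 76.5 CPM on the mixed coating. Its difference of 1.75 ± 0.30 (SE) missed the threshold (edgeR adjusted p = 0.0865), but passed with DESeq2, with limma on log2(TPM + 1) and without LN-521 replicate 3.

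In the list of 18 midbrain, hindbrain and more posterior genes, 6 were tested and 2 rose, with a median of 0.41. IRX3, an Iroquois homeobox gene, was at 8.06, 8.80 and 6.54 CPM on LN-521 and 13.8, 16.9 and 14.95 CPM on the mixed coating, a change of 0.96 ± 0.12 (SE, edgeR adjusted p = 1.21e-04). LMX1B, a LIM-homeobox gene of the midbrain-hindbrain boundary, had 13, 24 and 17 counts on LN-521 and 46, 45 and 46 on the mixed coating, a change of 1.50 ± 0.26 (SE, edgeR adjusted p = 0.00329). Both passed in each of the 6 fits that left out 1 library. EN1, EN2, WNT1, GBX2 and the 4 HOX genes of the list had at most 13 counts in a library and were not tested.

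In the list of 16 genes of neural progenitors and neurons, 13 were tested, 3 fell and none rose, with a median of 0.06. SOX4, a SoxC factor of immature neurons and other progenitors, fell: its means were 248.8 ± 10.3 CPM on LN-521 and 183.9 ± 13.4 CPM on the mixed coating (SD, n = 3 per coating), with a log2 difference of -0.44 ± 0.06 (SE, edgeR adjusted p = 2.99e-04). SOX3, a relative of SOX1 and SOX2, changed by -0.61 ± 0.13 (SE, edgeR adjusted p = 0.0165) and DCX, a microtubule protein of young neurons, by -0.43 ± 0.11 (SE, edgeR adjusted p = 0.0492). SOX4 passed in every fit that left out 1 library; SOX3 failed without LN-521 replicate 3 or any 1 mixed-coating library, and DCX passed only without LN-521 replicate 1 and failed with DESeq2 (adjusted p = 0.0629). The count was 1 without LN-521 replicate 3 or without any 1 mixed-coating library. Without LN-521 replicate 1 it was 5, with 3 genes lower and 2 higher, SOX11 and SOX21, both named after their values were seen. SOX11, a relative of SOX4, was at 232.4, 192.1 and 173.7 CPM on LN-521 and 248.9, 257.6 and 276.7 CPM on the mixed coating, with no overlap. Its log2 difference of 0.39 ± 0.09 (SE) missed the threshold (edgeR adjusted p = 0.0518). It passed as higher with RLE, without a filter, with 1 CPM in 3 libraries and with DESeq2.

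Close family relatives of the 9 genes formed a list of 15, of which 9 were tested and 2 fell, with a median of -0.03. POU3F4, a paralogue of POU3F1, was at 37.3, 31.3 and 31.99 CPM on LN-521 and 27.3, 20.6 and 17.6 CPM on the mixed coating, a change of -0.62 ± 0.14 (SE, edgeR adjusted p = 0.0433), opposite in sign to POU3F1. It passed without mixed-coating replicate 1 but in none of the other 5 fits that left out 1 library. The other gene that fell was SOX3. CRX and DMBX1, the relatives of OTX2 in the list, are named after their values were seen: CRX had 8, 14 and 5 counts on LN-521 and 28, 29 and 14 on the mixed coating (edgeR adjusted p = 0.0612), and DMBX1 had 20, 28 and 8 against 32, 46 and 37 (edgeR adjusted p = 0.0739). Both passed as higher without a filter, with a replicate block and without LN-521 replicate 2. In the first and second of these fits 2 genes of the list were higher and 2 lower, and in the last 2 were higher and 1 lower. No gene of the list passed without LN-521 replicate 3 or without mixed-coating replicate 2. DMBX1 also passed without LN-521 replicate 1 and CRX without mixed-coating replicate 3. SOX2, the abundant relative of SOX1 and also named after its values were seen, was at 456 ± 28.2 and 480 ± 7.2 CPM (SD, n = 3 each; edgeR adjusted p = 0.577).

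In the list of 12 genes of the head organizer and its secreted antagonists, 8 were tested and 4 rose, with a median of 0.37. FRZB, a secreted Wnt antagonist, was at 17.9, 14.5 and 11.8 CPM on LN-521 and 34.9, 38.6 and 38.7 CPM on the mixed coating, a change of 1.35 ± 0.12 (SE, edgeR adjusted p = 8.23e-06). SHISA2, which holds back Wnt and FGF receptors inside the cell, rose by 0.87 ± 0.09 (SE, edgeR adjusted p = 1.44e-05). SFRP1, another secreted Wnt antagonist, rose by 0.66 ± 0.09 (SE, edgeR adjusted p = 0.00171), and the homeobox gene HHEX by 0.96 ± 0.20 (SE, edgeR adjusted p = 0.0238). Without LN-521 replicate 2 the count was 2, as SFRP1 and HHEX did not pass. HHEX also failed without LN-521 replicate 3, without mixed-coating replicate 2 or 3, and with a replicate block (edgeR adjusted p = 0.0742). LEFTY2, a secreted Nodal antagonist named after its values were seen, was at 1.26, 1.39 and 2.53 CPM on LN-521 and lower on the mixed coating, at 0.915, 0.269 and 1.1 CPM. Its difference of -1.18 ± 0.40 (SE) missed the threshold (edgeR adjusted p = 0.167), and it passed as lower without a filter and with a replicate block. DKK1, CER1, GSC and FOXA2 had at most 10 counts in a library and were not tested.

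Of 13 genes of primed pluripotency, 12 were tested, 3 fell and 1 rose, with a median of 0.05. POU5F1, the partner of OTX2 in pluripotent cells, was at 1068, 1302 and 1273 CPM on LN-521 and 927, 932 and 975 CPM on the mixed coating, a change of -0.36 ± 0.06 (SE, edgeR adjusted p = 0.00366), opposite in sign to OTX2. NANOG (-0.73 ± 0.09, SE; edgeR adjusted p = 1.65e-04) and TDGF1 (-0.65 ± 0.06, SE; edgeR adjusted p = 8.23e-06) fell, and LIN28A rose (0.23 ± 0.05, SE; edgeR adjusted p = 0.00737). The count was 7 without LN-521 replicate 1 and 2, NANOG and TDGF1, without mixed-coating replicate 2. LIN28A did not pass without LN-521 replicate 3 or without mixed-coating replicate 2 or 3. Estimated counts of POU5F1 and NANOG were whole in 0 of 6 libraries and those of TDGF1 in 1 (genes with near-identical pseudogenes), while all 9 transcription factor genes had whole counts in all 6 libraries. Exons of TDGF1 overlap those of LRRC2 on the other strand by 110 bases, and those of POU5F1 overlap TCF19 by 248 bases. Those of POU3F4 overlap Z82170.1 by 954 bases, those of SOX4 overlap AL512380.2 by 168 bases and those of ZIC1 overlap ZIC4 by 176 bases. The same limit as for FEZF1 holds for these. LRRC2, named for its overlap after its values were seen, changed by -0.66 ± 0.12 in log2 (SE, edgeR adjusted p = 0.0032). On its own strand TDGF1 overlaps AC104304.1 by 45 bases, which the use of strand would not separate.

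**Figure D3:**
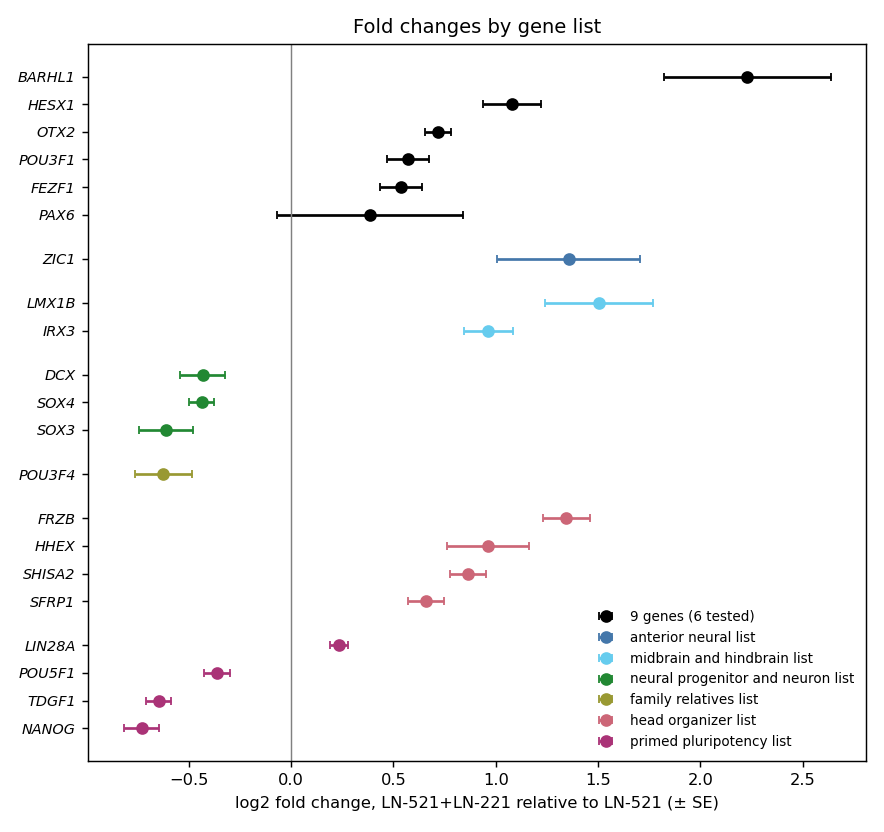
Log2 fold change on the mixed coating relative to LN-521 (edgeR fit on 6 libraries; bars are SE) for the 6 tested genes of the 9 (black) and for the genes of each list that passed the threshold (colours; SOX3 stands in 2 lists and is drawn once). BARHL1, HESX1, OTX2, POU3F1 and FEZF1 lie to the right of 0 with ZIC1, LMX1B, IRX3 and the head organizer genes, and SOX3, SOX4, DCX and POU3F4 to the left.

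Across the series, total counts per library were 20606494 to 26836727, 1 count corresponded to 0.0376 to 0.0482 CPM, and 1 sequencing batch held all libraries. Markers of undifferentiated stem cells were abundant, as the label says: the 7 genes summed to 6566 to 6694 CPM on LN-521 and 6494 to 6585 CPM on the mixed coating. Of these 7, 3 were lower (POU5F1, NANOG and TDGF1) and 1 higher (LIN28A). Of 7 neural progenitor markers, PAX6 and SOX1 among them, 5 had a mean below 1 TPM, 3 were tested and none of these passed; their sum, most of it NES, was 407.5 to 444.3 CPM and 417.3 to 458.5 CPM. The 6 neuron markers summed to 266.1 to 287.6 CPM and 287.7 to 307.8 CPM, with 1 gene higher (STMN2) and 1 lower (DCX). Most of this sum was TUBB3, which did not pass (edgeR adjusted p = 0.496). The 6 neural crest markers summed to 19.0 to 20.1 CPM and 13.9 to 17.4 CPM, with FOXD3 lower (these genes are named after their values were seen); 3 of the 6 were tested. Of 6 markers each, 2 were tested for surface ectoderm and amnion, 1 for mesoderm and 2 for endoderm; none of these passed, and the others had too few counts for the test. No marker of any list was at 0 in all 6 libraries. Whether the changes in some stem cell, neuron and neural crest markers have a part in the values of the 9 genes was not tested. In bulk RNA, more cells with a transcript and more transcript per cell cannot be told apart.

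**Figure D4:**
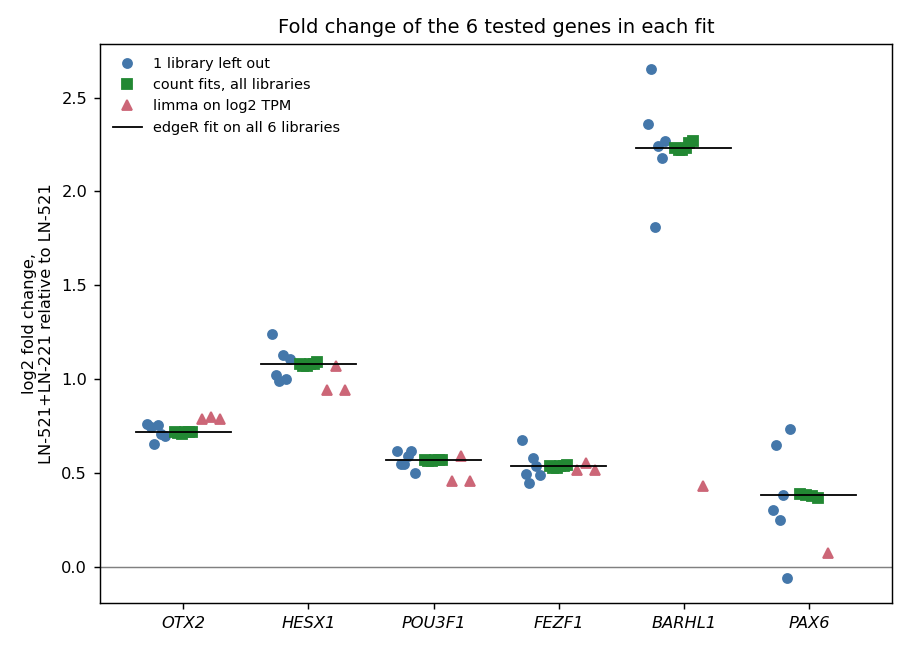
Log2 fold change of the 6 tested genes in each fit: the edgeR fit on all 6 libraries (line), fits with 1 library left out (circles), other count-based fits (squares) and limma on log2 TPM (triangles). OTX2, HESX1, POU3F1 and FEZF1 stay above 0 in every fit, BARHL1 spans 1.81 to 2.65 with 1 library left out and 0.431 on the log2(TPM + 1) scale, and PAX6 falls to -0.056 in 1 fit.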

How the data were processed

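RNA from 6 wells of H1 cells was read in pairs of 150 bp. The submitters' processing notes name cutadapt, STAR (2.5.2b), RSEM (1.2.31) and build hg38; the annotation and the use of strand are not given in the sources used here. The authors deposited a gene table of estimated counts (6.08% to 6.67% of values per library not whole) and a table of TPM values.

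Estimated counts were rounded, filtered with filterByExpr (minimum count 10), scaled by TMM and compared with edgeR's quasi-likelihood test (4.0.16, R 4.3.3, robust) on all 6 libraries, with p-values adjusted over 17608 genes (Benjamini-Hochberg, threshold 0.05). CPM are rounded counts over TMM-scaled library sizes. SE is the log2 fold change over the square root of F. Correlations used log2(CPM + 0.5). Symbols were found for 93.1% of IDs, and exon overlaps and gene positions came from GENCODE 29 (GRCh38). Alternatives were RLE, library size alone, 2 other filters, DESeq2 (1.42.0), limma (3.58.1) on log2 TPM (pseudocount 1 or 0.1), a replicate block and each library left out. Scripts were tested on simulated data.

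The 9 genes and the lists were chosen with earlier results of these data known. Named genes are the 9, list genes past the threshold, and the 5 genes most like OTX2; others are marked as named after their values were seen, or are named only for an exon overlap or as untested list genes. The labels call the triplicate wells biological replicates and name no separate passages, so p-values measure the spread between these wells. All library pairs differed by more than sampling noise (chi-square per degree of freedom at least 2.77).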

Additional observations from a re-analysis of the deposited data

How the results depend on the processing

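The 5 genes that passed kept their direction in every setting that tested them; BARHL1 was not tested with log2(TPM + 1) or log2(TPM + 0.1) at a minimum of 1 TPM. With TPM the number that passed was 1 with log2(TPM + 1), 0 with log2(TPM + 0.1) and 0 with log2(TPM + 1) on genes above 0 TPM, and it ranged from 3 to 5 with 1 library left out. PAX6 changed sign to -0.056 without LN-521+LN-221 replicate 2 (range -0.056 to 0.733). The 446 calls over all genes (246 higher) became 718 without a filter (336 higher and 382 lower). They became 33 (81.8% higher), 16 and 1 in the same TPM settings, and 194 to 1179 with 1 library left out. There were 1179 without LN-521 replicate 1, 201 without LN-521 replicate 3, and 290, 198 and 194 without LN-521+LN-221 replicates 1, 2 and 3. For the lists, log2(TPM + 1), log2(TPM + 0.1) and log2(TPM + 1) on genes above 0 TPM gave 1, 0 and 0 anterior neural genes, 0, 0 and 0 midbrain and hindbrain genes, 0, 0 and 0 progenitor and neuron genes, 0, 0 and 0 relatives, 2, 0 and 0 head organizer genes and 0, 0 and 0 primed pluripotency genes. The anterior neural count was also 0 with library size alone and with 1 CPM in 3 libraries, where ZIC1 was not tested. The relatives' count was 1 with library size alone and 4 without a filter. Leaving out 1 library gave 0 to 1 anterior neural, 2 to 3 midbrain and hindbrain, 1 to 5 progenitor and neuron, 0 to 3 relative, 2 to 4 head organizer and 2 to 7 primed pluripotency genes. For each of these, the cause was not tested. A replicate block gave 646 genes (442 of the 446), the same 5 of the 9 genes passed, and the relatives' count was 4, with CRX and DMBX1 added. Under the block HHEX did not pass (edgeR adjusted p = 0.0742) and LEFTY2 passed as lower. Deviations of same-numbered wells correlated at 0.0684, -0.0316 and -0.0185, and those of other-numbered wells at -0.0819 to 0.104. Of 6 libraries, 2 correlated best with their own number. This gave no sign of pairing by number, but 3 wells per coating are too few to exclude it. At this depth, genes with under about 10 counts per library, SIX3, SOX1 and OTX1 among them, allow only wide intervals.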
